A study of Mus musculus with 2 samples.

Results

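The regions described here are DNase-hypersensitive sites around 8 inflammatory chemokine genes, Ccl2, Ccl7, Ccl5, Ccl9, Ccl3, Ccl4, Cxcl2 and Cxcl10, in RAW264 cells. Every DNase-seq peak that touched 1 of 4 windows of the mm9 mouse genome was taken, by its position alone. The windows themselves were chosen with earlier results of these data known. The windows were chr11 from 81.78 to 81.95 Mb (Ccl2 and Ccl7), chr11 from 83.25 to 83.55 Mb (Ccl5, Ccl9, Ccl3 and Ccl4), chr5 from 91.25 to 91.45 Mb (Cxcl2) and chr5 from 92.70 to 92.85 Mb (Cxcl10). They held 44 of the 29939 peaks of the study, 19 of 13492 in cells without RANKL and 25 of 16447 in cells with RANKL.

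RAW264 is an established mouse macrophage-like line, and both groups were cultures of this line, with no genetic change named in the labels. One group had no RANKL. The other was given RANKL, the cytokine that drives macrophages to become bone-resorbing osteoclasts, as a GST fusion at 234 ng/ml for 24 hours. DNase-seq uses a brief DNase I digestion that cuts accessible DNA first. The released fragments (here 100 to 500 bp) are sequenced, and places where they pile up are called as peaks. There was 1 library per group, so no value has a replicate error, no p-value could be computed, and the differences describe these 2 libraries. Sequencing depth is unknown.

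Chemokines are small secreted proteins that call white blood cells to a tissue by binding receptors on their surface. The CC family has its first cysteines side by side and the CXC family has a residue between them. Their genes lie in clusters of related copies, and in macrophages many are switched on quickly by inflammatory signals through NF-kappaB and interferon-activated factors. RANKL signals through its receptor RANK to NF-kappaB, AP-1 and later NFATc1.

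In the RefSeq gene order of the GRCm38 assembly, Ccl2 is followed by Ccl7, Ccl11, Ccl12, Ccl8 and Ccl1. Ccl5 is followed by Ccl9, Ccl6, Ccl3 and Ccl4, and preceded by Heatr9, Taf15 and Mmp28, which are not chemokine genes. Ccl4 is followed by Wfdc17, Wfdc18 and Wfdc21, which are not chemokine genes either. Cxcl2 follows Ppbp, Pf4, Cxcl3, Cxcl15 and Cxcl1 and precedes Mthfd2l. Cxcl10 stands between Art3 and Nup54, with Cxcl9 and Sdad1 close below it. No mm9 annotation was used, so peaks were not assigned to genes, and a peak in a window may belong to one of these neighbours. For the same reason the macrophage identity of the cells was not tested against marker genes.

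Promoter sequences from RefSeq (GRCm38.p6) are shown to give the letters from which these genes are started and the motifs in them. Of the 8 genes, 4 had a stored promoter (Ccl9, Ccl3, Cxcl2 and Cxcl10), as did 9 of 12 further chemokine genes of the same clusters. The 250 bases before the start of 3 of them are printed 5′ to 3′ on the strand of the gene (plus for Cxcl2, minus for Cxcl10 and Ccl9), with every motif match in capitals. Peaks were not placed on these sequences, because they come from another build.
Cxcl2: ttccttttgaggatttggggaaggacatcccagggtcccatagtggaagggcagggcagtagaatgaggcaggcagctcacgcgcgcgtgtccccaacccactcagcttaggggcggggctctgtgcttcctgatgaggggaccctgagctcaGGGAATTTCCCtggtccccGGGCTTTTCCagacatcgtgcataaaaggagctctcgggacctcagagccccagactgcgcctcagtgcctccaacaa
Cxcl10: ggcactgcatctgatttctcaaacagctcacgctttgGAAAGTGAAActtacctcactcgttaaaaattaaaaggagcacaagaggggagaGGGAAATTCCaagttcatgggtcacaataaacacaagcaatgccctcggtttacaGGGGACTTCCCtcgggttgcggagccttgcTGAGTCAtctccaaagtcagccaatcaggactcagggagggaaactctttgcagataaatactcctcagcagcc
Ccl9: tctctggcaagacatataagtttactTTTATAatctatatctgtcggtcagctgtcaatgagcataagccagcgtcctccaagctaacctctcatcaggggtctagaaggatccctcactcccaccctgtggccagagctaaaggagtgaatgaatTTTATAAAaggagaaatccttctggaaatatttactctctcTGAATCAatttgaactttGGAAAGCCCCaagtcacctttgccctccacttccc

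Motifs were searched on both strands. The NF-kappaB motif was searched in a short form, GGG, any 2 bases, then TTTCC, in an exact form with AA at the open positions, and in its full consensus. The full consensus was added after the sequences were seen. The others were AP-1 (TGANTCA), NFAT (GGAAAA), PU.1 (GAGGAAGT), C/EBP (TTGCNNAA), the TATA box (TATAAA) and the interferon-stimulated response element (TTTC, any 2 bases, TTTC). The Cxcl2 promoter held the short NF-kappaB form at 97 and at 78 bases before the start, and the second match overlaps an NFAT match. The Cxcl10 promoter held an interferon-stimulated response element at 213 bases, NF-kappaB consensus matches at 159, 104 and 103 bases, the last 2 overlapping, and an AP-1 match at 74 bases. The Ccl9 promoter held an AP-1 match at 53 bases, a short NF-kappaB match on the other strand at 35 bases, and TATA letters at 224, 94 and 92 bases. In the Ccl3 promoter only the NFAT letters were found, at 60 bases. Of 32851 stored promoters, 1.41% held the short NF-kappaB form within 250 bases, 7.25% the full consensus, 6.75% AP-1, 2.98% the interferon-stimulated response element, 12.4% the TATA box, 20.4% NFAT, 2.44% PU.1 and 9.56% C/EBP. The last 2 were not found in the 4 promoters of the 8 genes. A match describes letters only.

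The exact NF-kappaB form was found in 3 of the 13 chemokine promoters searched, those of Cxcl2 and of its neighbours Cxcl1 and Cxcl3, and in 28 of all 32851 (0.0852%). These 3 genes are related copies, so the matches do not count as independent. The 40 bases around each match show the shared letters in capitals.
Cxcl1: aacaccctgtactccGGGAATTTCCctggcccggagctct
Cxcl2: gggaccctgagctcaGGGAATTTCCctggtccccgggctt
Cxcl3: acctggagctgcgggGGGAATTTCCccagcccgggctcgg

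The first comparison asked which chemokine sites were found in both states. Peaks of the 2 lists that had at least 1 bp in common were called shared. Without RANKL, 11 of the 19 window peaks were shared and 8 were found in that list only (42.1%, 95% Wilson interval 23.1 to 63.7%), against 39.3% of the whole list. With RANKL, 16 of 25 were shared and 9 were found only there (36.0%, interval 20.2 to 55.5%), against 34.3% of the whole list. Both shares lay near those of all peaks, so as a group the chemokine windows did not stand apart. The intervals cover counting error only and treat neighbouring peaks as independent.

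The windows differed among themselves in counts. Ccl2 and Ccl7 had 3 peaks in each list. The window of Ccl5, Ccl9, Ccl3 and Ccl4, called the Ccl5 to Ccl4 window below, had 8 without and 7 with RANKL. Cxcl10 had 5 and 6. Cxcl2 had 3 without and 9 with RANKL, a ratio of 3.00 whose exact conditional Poisson interval, 0.749 to 17.2, includes the 1.22 of the whole lists. The interval treats neighbouring peaks as independent, yet 4 of the 9 lay in pairs on 2 of the peaks without RANKL. With peaks closer than 1 kb merged, the counts were 3 without and 7 with RANKL. The 5 peaks of the Cxcl2 window found only with RANKL were mostly weak, as given below.

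**Figure D1:**
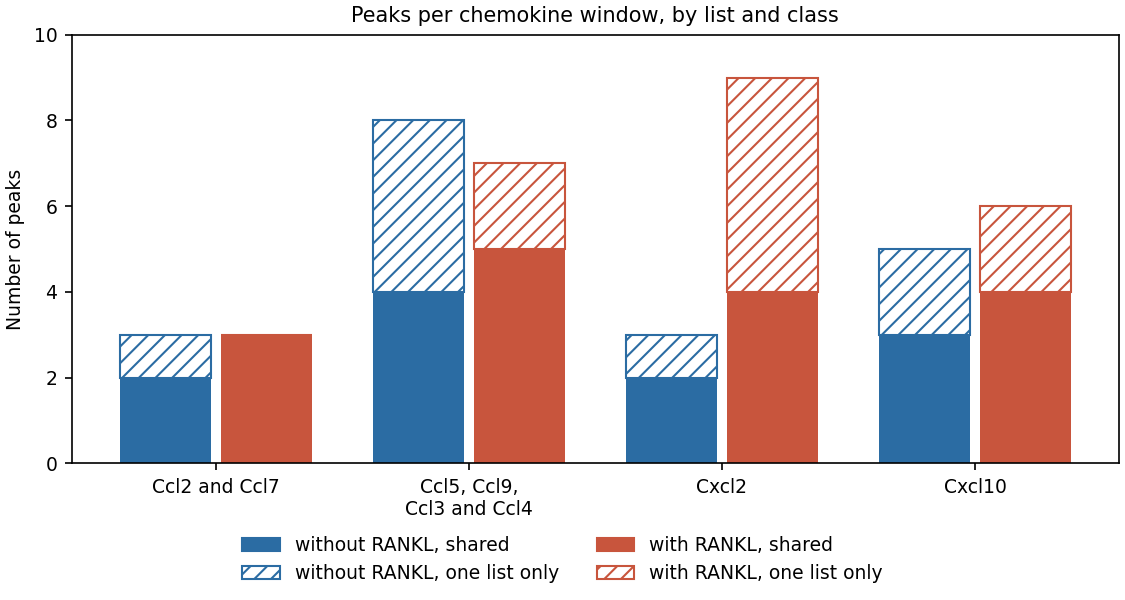
Number of DNase-seq peaks (vertical axis) in each of the 4 chemokine windows, without RANKL (blue) and with RANKL (red), with 1 library each; filled parts are shared peaks and hatched parts peaks found in one list only. The Ccl2 and Ccl7 window had 3 peaks in each list and none found only with RANKL, while the Cxcl2 window had 3 and 9.

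Widths differed between the lists in the windows as they did everywhere. The median width of the window peaks was 1848 bp without RANKL (866 to 4033 bp) and 228 bp with RANKL (110 to 864 bp). The whole lists had medians of 1738 and 233 bp. The peaks without RANKL covered 39.7 kb of the windows and those with RANKL 7.76 kb. A difference in peak calling or library preparation between the lists cannot be told apart from an effect of RANKL on width.

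The score that accompanies each peak is the authors' own, and its definition is not given in the sources used here. It was read only as a rank within its list, given below as the percent of that list with a lower score. A difference in score or rank between the lists was therefore not read as a change in accessibility at a site.

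**Figure D2:**
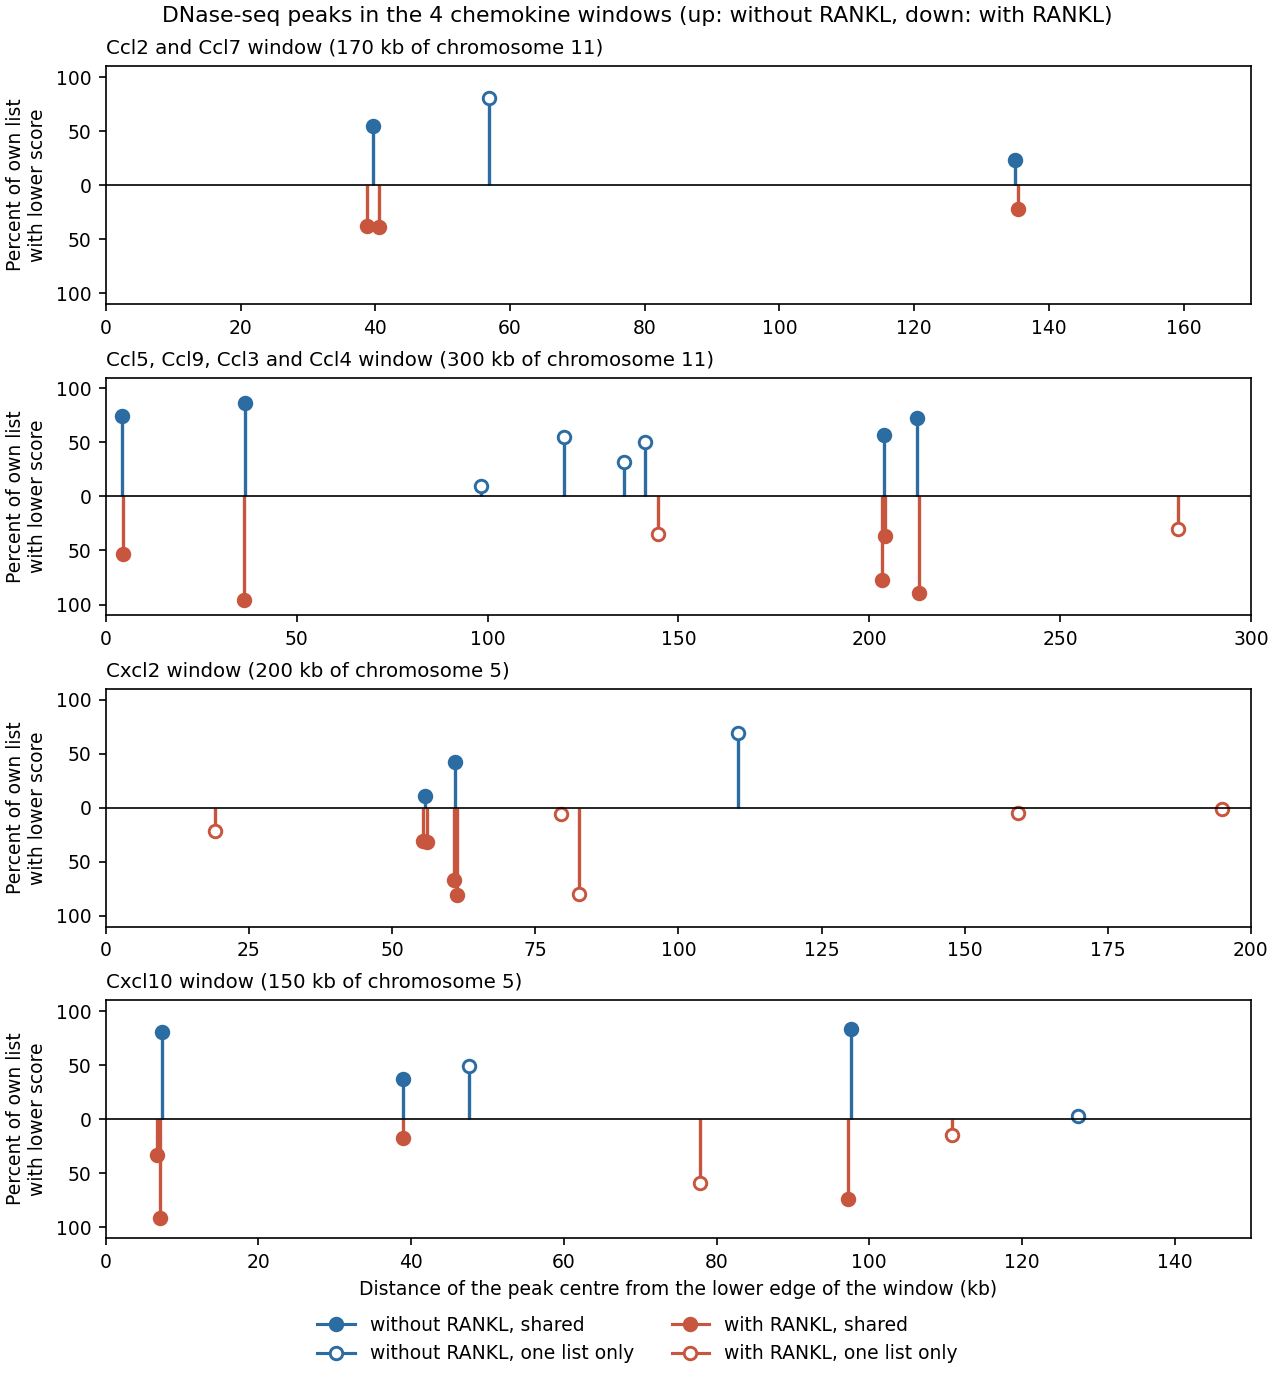
Peaks of the 4 windows by distance of the peak centre from the lower edge of the window (horizontal axis, kb) and by the percent of their own list with a lower score (vertical axis), without RANKL upward in blue and with RANKL downward in red; filled circles are shared and open circles found in one list only. The Ccl2 and Ccl7 window has an open blue circle at 80.3%, and the Ccl5 to Ccl4 window has 4 open blue circles in a row.

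Ccl2 and Ccl7 encode attractants of monocytes that act through the receptor Ccr2. The most highly ranked site of their window was found only without RANKL. It lay at chr11:81835354-81838375, was 3022 bp wide and scored 171, above 80.3% of its list. The nearest RANKL peak was 14.7 kb away. Of the 2656 peaks without RANKL that scored at least as high, 105 (3.95%) lacked a RANKL peak. That share pools all stronger peaks, so it is not the rate at this score. It was 2.96% at or above a score of 182 and 6.21% at or above 150. With 1 library per group, the absence of this site from the RANKL list has no test.

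The other sites of the Ccl2 and Ccl7 window were shared. The peak at chr11:81817637-81821669, the widest of all 19 at 4033 bp, scored 108 (above 54.4% of its list) and held 2 narrow RANKL peaks, at chr11:81818653-81818872 (score 63.8) and chr11:81820317-81820696 (score 64.4). These lay 1444 bp apart on opposite sides of its centre. At chr11:81914345-81915654 a weaker peak (score 68.0, above 22.8%) overlapped a RANKL peak at chr11:81915274-81915437 (score 56.0, above 22.4%). All 3 RANKL peaks of this window ranked in the lower 50% of their list. Between 81820697 and 81915273 the RANKL list had no peak over 94.6 kb.

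The Ccl5, Ccl9, Ccl3 and Ccl4 window holds genes for attractants of T cells, monocytes and other leukocytes. Ccl9, which osteoclasts are known to make, is a ligand of Ccr1. The strongest site of this window was the same in both lists. It lay toward the lower edge, where the gene order places the non-chemokine genes Taf15 and Heatr9 before Ccl5. The peak without RANKL at chr11:83285072-83287918 scored 195, above 86.2% of its list and the highest of the 19. The RANKL peak on it, at chr11:83285652-83286515, scored 324, above 96.1% of its list and the highest of the 25. At 864 bp it was also the widest RANKL peak of the 4 windows.

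In the middle of this window lay a row of 4 sites found only without RANKL. They were at chr11:83347502-83349064 (score 56.6, above 9.32% of the list), chr11:83369243-83370619 (score 110, above 55.3%), chr11:83385006-83386339 (score 77.2, above 31.6%) and chr11:83389944-83392571 (score 102, above 50.4%). They spanned 45.1 kb with no RANKL peak in between, and the RANKL list had no peak over 108 kb from 83286516 to 83394475. Rows of at least 4 such peaks, with no RANKL peak among them, were 122 in the whole list and held 545 peaks (4.04%). Of these rows, 5 were as short as this one or shorter, this one included. The row was picked out after its values were seen. Of its 4 peaks, 2 ranked in the lower 50% of the list, and for weak peaks a missing partner does not show closed chromatin.

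Directly beside this row, 1.90 kb past the last broad peak, lay a RANKL-only peak at chr11:83394476-83394643 (score 62.1, above 35.2%). A second RANKL-only peak stood alone at chr11:83530902-83531127 (score 59.5, above 30.4%), with 18974 bp to the other list. Both ranked in the lower 50% of the RANKL list.

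Farther up the same window of 300 kb, starting 202.2 and 211.1 kb above its lower edge, 2 neighbouring sites were shared. The first, at chr11:83452196-83455508 (score 113, above 57.1%), held RANKL peaks at chr11:83453258-83453685 (score 128, above 77.1%) and chr11:83454006-83454389 (score 63.1, above 36.9%). The second, at chr11:83461118-83463841 (score 147, above 72.7%), held a RANKL peak of 835 bp at chr11:83462588-83463422 (score 203, above 89.3%). Near the lower edge, the peak at chr11:83253685-83254907 (score 150, above 74.0%) overlapped a RANKL peak at chr11:83254276-83254501 (score 78.0, above 53.7%).

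Cxcl2 encodes an attractant of neutrophils that acts through Cxcr2. Its window held 2 shared sites close together, each with 2 RANKL peaks on it. The peak without RANKL at chr5:91304683-91306789 scored 58.1 (above 11.3%), and on it lay RANKL peaks at chr5:91305234-91305451 (score 59.5) and chr5:91305904-91306154 (score 60.4). The peak at chr5:91310009-91311856 scored 89.7 (above 42.2%), and on it lay RANKL peaks at chr5:91310656-91310969 (score 98.3, above 66.6%) and chr5:91311256-91311491 (score 145, above 81.0%). That last peak was the highest RANKL score of the window.

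Beyond these sites the Cxcl2 window had different strong peaks in each list. With RANKL only, a peak of 701 bp at chr5:91332266-91332966 scored 140, above 80.1% of its list, 20.4 kb from the nearest peak without RANKL. It was the highest-scoring RANKL-only site of the 4 windows. Of the 3277 RANKL peaks that scored at least as high, 199 (6.07%) lacked a partner. Without RANKL only, a peak at chr5:91359317-91361448 scored 137, above 68.8% of its list, with 26.4 kb to the nearest RANKL peak. Of the 4205 peaks of its list at or above that score, 350 (8.32%) lacked a RANKL peak. The 6.07 and 8.32% pool all stronger peaks, so neither is the rate at the score of the site.

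The remaining 4 RANKL-only peaks of the Cxcl2 window were weak. They lay at chr5:91269043-91269152 (score 55.9, above 21.9%), chr5:91329409-91329666 (score 51.4, above 5.87%), chr5:91409216-91409359 (score 51.2, above 4.99%) and chr5:91444801-91444925 (score 50.4, rank 16153 of 16447). The lowest score in either list was 50.0, so 3 of these 4 stood just above the lowest score listed. In the upper 50% of each list by score, the window held 1 peak without and 3 with RANKL.

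Cxcl10 encodes an interferon-induced attractant of activated T cells that acts through Cxcr3. The first site of its window, at chr5:92706472-92708274, scored 171 (above 80.3%), the same as the unshared Ccl2 and Ccl7 site, and here 2 RANKL peaks lay on it. They were at chr5:92706654-92706812 (score 60.8, above 33.0%) and chr5:92706865-92707317 (score 235, above 91.9%), only 52 bp apart. The window's highest peak without RANKL, at chr5:92796051-92799176, scored 182 (above 83.2%) and overlapped a RANKL peak at chr5:92796987-92797395 (score 116, above 73.8%). The middle of the 3 shared sites, at chr5:92738267-92739469 (score 83.1, above 36.9%), overlapped a RANKL peak at chr5:92738909-92739050 (score 54.4, above 17.4%).

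In the Cxcl10 window each list also had 2 peaks of its own, 1 of each between the shared sites and 1 of each above them. With RANKL only, the peak at chr5:92777677-92777904 scored 85.7, above 59.5% of its list, in a stretch of 47.8 kb without any peak in the other list. Of the 6657 RANKL peaks at or above that score, 759 (11.4%) lacked a partner. That share pools all stronger peaks and is not the rate at this score. At or above a score of 78.0 it was 13.5%. The other RANKL-only peak, at chr5:92810852-92810964, scored 53.6 (above 14.9%). Without RANKL only, the peak at chr5:92746975-92748263 scored 99.6 (above 49.0%), with a RANKL peak 7.92 kb away. A further one at chr5:92826956-92827821 scored 51.9 (above 2.98%) and was the narrowest of the 19, at 866 bp.

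The second comparison set the narrow RANKL peaks against the broad peaks they lay on. All 16 shared RANKL peaks lay wholly inside 1 of the 11 broad peaks (99.6% did over the whole lists). Of the 11, 5 held 2 RANKL peaks (45.5%, interval 21.3 to 72.0%), against 27.5% of shared peaks in the whole list that held 2 or more. Every window had at least 1 such site. The gap between the 2 narrow peaks was 1444 bp at the Ccl2 and Ccl7 site, 320 bp at the Ccl5 to Ccl4 site, 452 and 286 bp at the 2 Cxcl2 sites and 52 bp at the Cxcl10 site. In 4 of these 5 the narrow peaks lay with their centres on opposite sides of the broad centre, and at the Cxcl10 site both lay on the lower side.

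The narrow peaks were not centred on the broad ones. Over the 16 pairs the centres were 92 to 890 bp apart, with a median of 387 bp, against a median of 202 bp over the 10813 pairs of the whole lists. The 2 medians cover unlike mixes, because RANKL peaks that lie on the same broad peak cannot all be centred on it. Broad peaks with 2 or more were 45.5% of the shared sites in the windows and 27.5% in the whole list. Broad peaks were 3.26 to 18.3 times as wide as the RANKL peak on them (median 7.91, whole lists 6.70). The smallest ratios belonged to the 2 wide RANKL peaks of the Ccl5 to Ccl4 window, at 3.26 and 3.30, and to the stronger Cxcl10 peak, at 3.98.

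**Figure D3:**
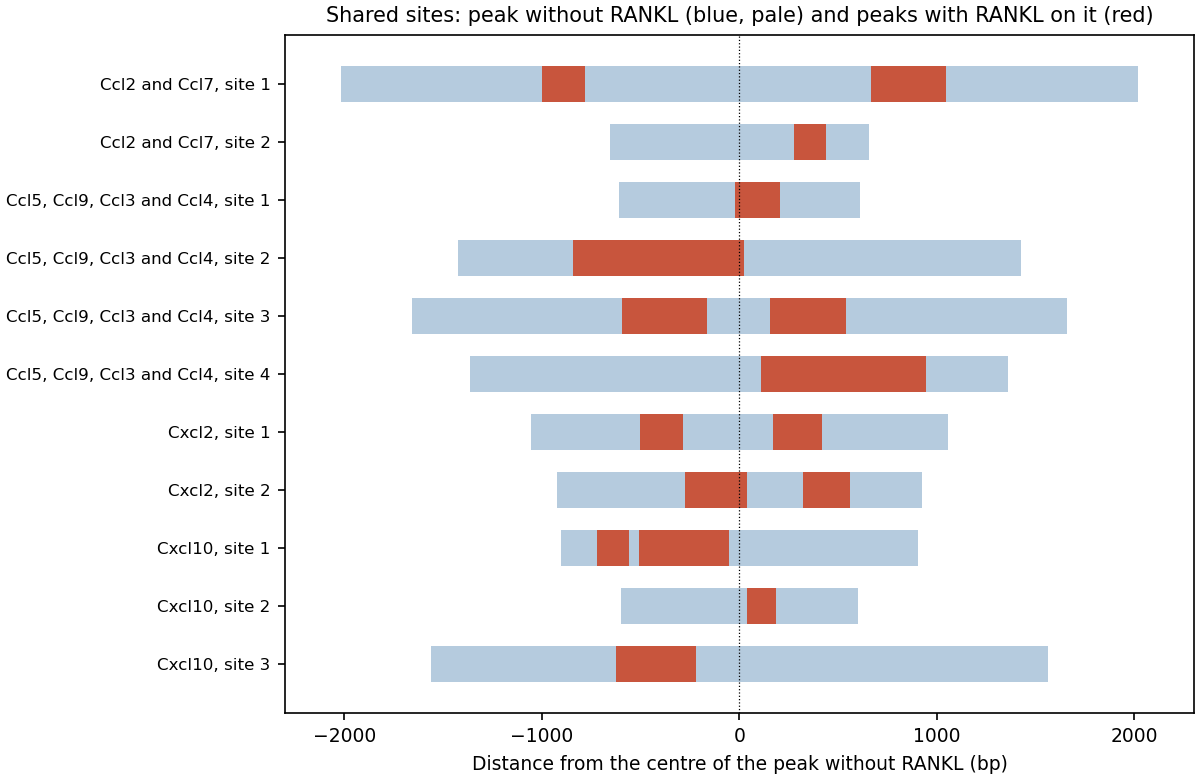
The 11 shared sites of the 4 windows, in genome order within each window, drawn to scale by distance from the centre of the peak without RANKL (horizontal axis, bp); the pale blue bar is the peak without RANKL and the red bars the RANKL peaks on it. All 16 RANKL peaks lie inside the blue bars, and 5 sites hold 2 of them.

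Across the 11 shared sites, those ranked higher without RANKL also tended to be ranked higher with RANKL. Spearman's rho between the score of the broad peak and the highest RANKL score on it was 0.75, against 0.58 over the 8186 shared sites of the whole list. Both are descriptions over sites of the same 2 libraries. With the 11 sites put in order within each list, lowest first, 8 stood at most 2 places apart between the lists. The site at chr5:91310009-91311856 in the Cxcl2 window was in place 4 without and 8 with RANKL. The site at chr5:92796051-92799176 in the Cxcl10 window was in place 10 and 6, and the site at chr11:83253685-83254907 in the Ccl5 to Ccl4 window in place 8 and 5.

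The third comparison asked how strong the chemokine sites were within each list. The highest 10% of the list without RANKL held 0 of the 19 window peaks, and that of the RANKL list held 2 of the 25, the Ccl5 to Ccl4 peak that scored 324 and the Cxcl10 peak that scored 235. The median window peak scored above 54.4% of the list without RANKL and above 36.9% of the RANKL list. Among peaks found only without RANKL, the 8 in the windows had a median rank of 49.7%, against 28.0% for all such peaks of the list, while the 9 found only with RANKL had 21.9%, against 27.3%. Shared peaks had medians of 57.1% without and 46.2% with RANKL (whole lists 66.5 and 63.3%).

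In the upper 50% of the list without RANKL, 4 of 11 window peaks lacked a RANKL peak (36.4%, interval 15.2 to 64.6%), against 16.9% of that part of the list. They were the Ccl2 and Ccl7 site that scored 171, the Cxcl2 site that scored 137 and 2 of the row in the Ccl5 to Ccl4 window. Those 2 ranked close to the cut, above 55.3 and 50.4% of the list. The upper 50% of the list also holds peaks stronger than any window peak. At or above the highest window score, 195, 39 of 1860 peaks (2.10%) lacked a RANKL peak. The 36.4 and 16.9% were therefore not compared at equal strength. In the upper 50% of the RANKL list, 2 of 10 lacked a partner (20.0%, interval 5.67 to 51.0%), against 14.6%. Those were the Cxcl2 site that scored 140 and the Cxcl10 site that scored 85.7. Both intervals include the share of that part of the list. In the lower 50% of each list the difference went the other way. Without RANKL, 4 of 8 window peaks lacked a partner (50.0%, against 61.8% of that part of the list). With RANKL, 7 of 15 did (46.7%, against 53.9%).

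**Figure D4:**
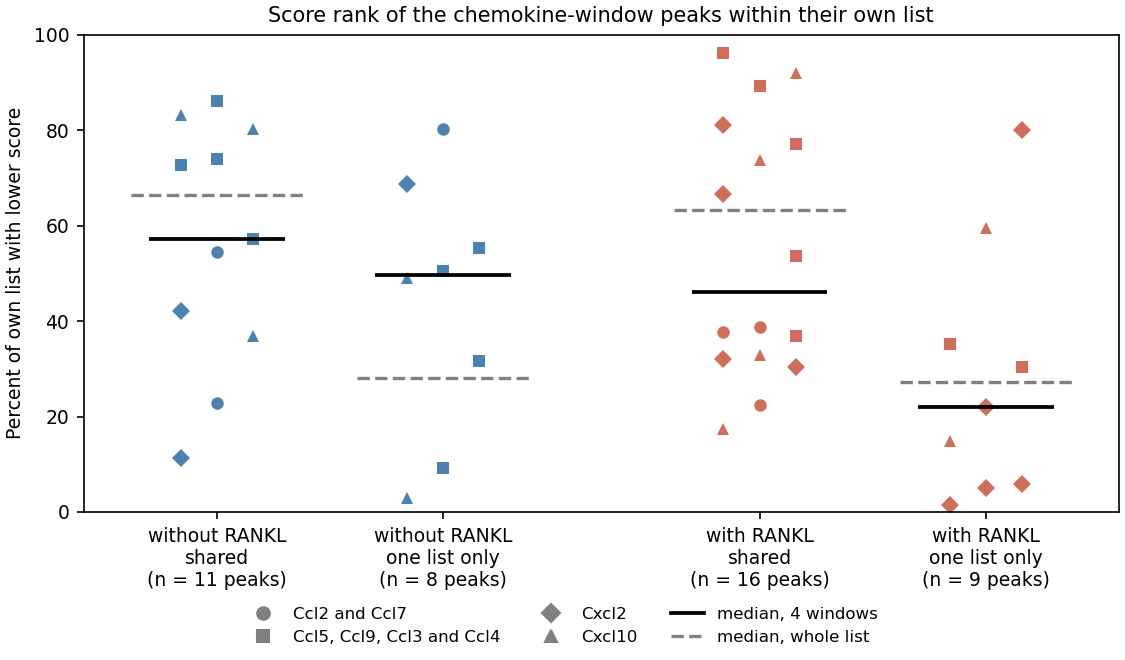
Percent of the own list with a lower score (vertical axis) for the 44 window peaks by list and class, with the symbol giving the window, a black line the median of the window peaks and a dashed grey line the median of the same class in the whole list. The 8 peaks found only without RANKL have a median of 49.7%, above the grey line at 28.0%.

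Sites found in one list only lay nearer to the other list, by their median, than such sites over the whole lists. For the 8 without RANKL they ranged from 1.90 to 45.4 kb (median 15.3 kb, whole list 25.2 kb), and for the 9 with RANKL from 1.90 to 83.4 kb (median 18974 bp, whole list 34.1 kb). Only 1 of each lay within 5 kb of the other list, the pair of neighbours in the Ccl5 to Ccl4 window. Such distances depend on how densely peaks lie, and the windows were richer in peaks than most stretches, as given below. The medians were not compared at equal density.

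The windows were richer in peaks than most stretches of the genome. Chromosomes 1 to 19 and X were tiled with windows of the same length as each chemokine window, as a description. The 3 peaks of the Ccl2 and Ccl7 window were reached by 13.2% of the tiles without and 15.2% with RANKL. The 8 and 7 peaks of the Ccl5 to Ccl4 window were reached by 4.09 and 7.49%. For Cxcl10, 3.48 and 2.81% of tiles held as many. The 3 peaks of the Cxcl2 window without RANKL were reached by 15.9% of tiles and its 9 with RANKL by 1.35%. These windows surround genes, while the tiles also cover gene-poor stretches, and 49.1 to 66.8% of the tiles held no peak.

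The edges of the windows were set by position, and 1 peak fell just past them. Without RANKL only, a peak at chr11:83550102-83551912 (score 88.3) began 0.101 kb above the Ccl5 to Ccl4 window. The next RANKL peak above that window, at chr11:83567224-83567675 (score 196), was shared. The next peaks of the Ccl2 and Ccl7 window lay 1172 kb below and 98.7 kb above it without RANKL, and 234 and 204 kb with RANKL. Below the Ccl5 to Ccl4 window, the next peak was 133 kb away without RANKL and 8.87 kb away with RANKL. The nearest outside peaks of the Cxcl2 window were 77.9 to 118 kb away. Above the Cxcl10 window, both lists had a shared peak 13.4 and 14.0 kb away.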

How the data were processed

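DNase-seq was analysed from 2 RAW264 libraries, 1 per group. The authors worked on build mm9 with Bowtie2 2.0.0 and MACS2, per the submitters' processing notes. The authors deposited 1 peak list per library, with a position and a score per peak. The calling threshold, a control library and the meaning of the score were not given in the sources used here. Scores in both deposited lists started at 50.0 and were used only as ranks within a list.

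Peaks touching the windows were classed by an overlap of at least 1 bp, with pandas 2.3.3, scipy 1.17.1 and numpy 2.4.6 under Python 3.11.15. Shares carry 95% Wilson intervals. The overlap code was tested on simulated data with partial overlaps, abutting peaks and near misses, and classified 2000 of 2000 peaks correctly. No test across replicates was possible. Coordinates are 1-based on mm9. Promoter sequences were read from RefSeq (GRCm38.p6), and 13 of 20 chemokine genes matched.

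The sites given by position are the highest peak per list and window, broad peaks with 2 or more RANKL peaks, and peaks of one list only; the other shared sites are given too. The windows, genes and lists were chosen with earlier results of these data known.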

Additional observations from a re-analysis of the deposited data

How the results depend on the processing

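Of 69 values recomputed under other settings, 16 counts differed from the reported count by more than 1.5 times. The other 53 values include the remaining counts, which did not, and the ranks. On chromosomes 1 to 19 and X alone, the highest and median ranks without RANKL stayed at 86.2 and 54.4%. With RANKL they were 96.2 and 37.1%, against 96.1 and 36.9% reported. An overlap of 50% of both peaks left 0 shared peaks in both lists, and 19 without and 25 with RANKL unshared, because the narrow RANKL peaks cannot fill 50% of a broad one. With both lists reduced to their upper 50% by score, 6 window peaks were shared in each list, and 5 without and 4 with RANKL were not. Set against the whole other list, 4 and 2 were not. In the reduced lists the Cxcl2 window held 1 peak without and 3 with RANKL, the Cxcl10 window 2 and 3, the Ccl5 to Ccl4 window 4 with RANKL, and the Ccl2 and Ccl7 window 0 with RANKL. Fewer peaks remain by construction. No window peak changed class when an overlap of 50% of the narrower peak was required or when a peak within 1 kb counted as shared. With 500 bp around each centre, 10 without and 13 with RANKL were unshared. Widening the windows by 50 kb, narrowing them by 20 kb and merging peaks closer than 1 kb kept each window's count within 1.5 times. No paired analysis was possible because each group had 1 library, which also means that none could be left out. Depth is unknown, and this limits what a missing peak can show.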

Other observations

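Promoters of 9 further chemokine genes of the same clusters were searched for the same letters. The TATA box was found at 32 bases before the start in Ccl8, at 31 in Ccl12 and at 30 in Cxcl3 and Ppbp, with a second match in Ppbp at 8 bases. Cxcl9, an interferon-induced gene near Cxcl10, with Art3 between them in the gene order, held TATA letters at 195 bases and NFAT letters at 127 and 48 bases. Pf4, made by platelets and their precursors, had the only PU.1 match of the 13 promoters, at 10 bases. Ccl1 held the full NF-kappaB consensus at 196 bases. The interferon-stimulated response element was found in 1 of the 13, that of Cxcl10. These are positions of letters in the 250 bases before the start, and no peak was placed on them.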
